A study of Mus musculus with 18 samples.

Results

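The purinergic receptors and the adenosine pathway comprised 10 genes that were named as a list: the ATP-gated channels *P2rx4* and *P2rx7*, the nucleotide receptors *P2ry2*, *P2ry6*, *P2ry13* and *P2ry14*, the adenosine receptors *Adora2a* and *Adora2b*, and the ectonucleotidases *Entpd1* (CD39) and *Nt5e* (CD73). All 10 were found by symbol among the 16314 genes of the count table, and 9 were among the 12021 genes tested, since the counts of *Nt5e* were too low. They were described in bone marrow-derived macrophages (BMDMs) of *Prep*-/- mice and of heterozygous *Prep*+/- littermates, both on the C57BL6/J background, whose ages and sexes were not given. *Prep* encodes prolyl endopeptidase, and the deletion was present in every cell type and not only in macrophages. Bone marrow cells of both genotypes were cultured for 7 days with 50 ng/ml M-CSF. M0 cells were left unstimulated. LPS at 50 ng/ml gave M1 cells and IL-4 and IL-13 at 20 ng/ml each gave M2 cells, in both cases over 24 h. The 6 groups had 3 biological replicates each, which gave 18 bulk RNA-seq libraries. No wild-type mice were among the groups, so that every knockout value is relative to cells with 1 intact *Prep* allele.

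Stressed, dying or activated cells release ATP, which opens P2X channels and activates part of the P2Y family of G protein-coupled receptors. On the cell surface CD39 converts ATP and ADP to AMP, and CD73 converts AMP to adenosine, which acts through adenosine receptors. In macrophages ATP sensing through P2RX7 is known for triggering the inflammasome and the release of IL-1 beta, whereas the adenosine receptors that raise cAMP are known for restraining inflammatory cytokines.

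Total counts were between 19068237 and 22598279 per library, and levels are given as CPM, the counts of a gene relative to the total of its library after TMM scaling, which corrects for a few strong genes taking a large share of the counts. *Prep* itself was at 26.0 to 42.5 CPM in the *Prep*+/- libraries and at 1.48 to 3.22 CPM in the *Prep*-/- libraries, so that each library was on the side of its label. The 8 macrophage markers were all present. They moved with the genotype in M0, where their sum was 30385 to 48180 CPM in *Prep*-/- and 19002 to 22408 CPM in *Prep*+/- libraries and 6 of the 8 were called higher, with a median log2 change of 0.96. In M1 the sum was 31000 to 37042 CPM in *Prep*-/- and 45757 to 47208 CPM in *Prep*+/- libraries (1 called higher and 1 lower, median log2 change -0.08). In M2 it was 13889 to 19565 and 10027 to 12203 CPM (2 called higher, median 0.31). Most of each sum came from *Lyz2*, with 145799 to 828572 counts per library, where no other marker of the 8 passed 102556. In M1 *Lyz2* had 392373 to 519575 counts in *Prep*-/- and 567770 to 651641 in *Prep*+/- libraries. Of all tested genes, 15.4%, 12.3% and 6.37% were called higher in M0, M1 and M2, and 10.2% lower in M1. Among markers of other cells, the T cell list, of which 3 of 7 genes were in the table, summed to 8.17 to 29.7 CPM in *Prep*-/- M0 against 0.947 to 1.09 CPM in *Prep*+/- M0. That difference lay in *Cd4*, while *Cd3d* had at most 1 count in any library. The B cell list (3 of 5 genes) summed to 8.66 to 11.5 CPM against 3.01 to 4.79 CPM in the same groups, through *Cd79b*, with *Cd79a* at most at 4 counts and *Ms4a1* at most at 1 count in any library. Neutrophil markers (7 of 7 genes) summed to 46.3 to 109 CPM in *Prep*-/- M0 and to 21.6 to 32.5 CPM in *Prep*+/- M0. That difference lay in *S100a8*, *S100a9*, *Ltf* and *Camp*, while *Ly6g* had at most 3 counts in any library. The counts of *Mpo* (9 to 14 against 6 to 24) and *Elane* (6 to 8 against 3 to 9) overlapped. In M1 the neutrophil sum was 41.1 to 57.1 CPM in *Prep*-/- and 67.1 to 127 CPM in *Prep*+/- libraries. The part of these lists in the differences between the genotypes was not tested. Replicate 3 of *Prep*-/- M0 and replicate 3 of *Prep*-/- M2 stood apart from the replicates of their groups, with a chi-square per degree of freedom of 108 to 117 against 9.59 to 47.9 in the other pairs of replicates. Where leaving them out changed a call or moved a called value by over 1.5 times, the value is given with and without them.

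Of the 10 genes, 6 form 3 pairs of neighbours in the mouse genome (GRCm39). *P2rx7* (chr5:122781942-122830400) and *P2rx4* (chr5:122845541-122867803) are 15.1 kb apart on the plus strand, and *P2ry6* (chr7:100585308-100624173) and *P2ry2* (chr7:100640649-100663957) are 16.5 kb apart on the minus strand, each with 0 protein-coding genes between them. *P2ry14* (chr3:59021276-59061134) and *P2ry13* (chr3:59114539-59118304) are 53.4 kb apart on the minus strand, with 1 protein-coding gene between them, and both lie opposite *Med12l*, as does the ADP receptor *P2ry12* (chr3:59123682-59170429). *Adora2a* (chr10:75152560-75170628), *Adora2b* (chr11:62139804-62157279), *Entpd1* (chr19:40600810-40731585) and *Nt5e* (chr9:88209089-88254146) are on the plus strand of separate chromosomes. Short stretches of *P2rx7* and *P2ry2* are shared with the unnamed genes *Gm71659* (317 bases, 99.7% identical) and *Gm74011* (460 bases, 100% identical), which overlap them on the opposite strand, and whether reads were counted by strand is not given in the sources used here. On its own strand, *Entpd1* overlaps *Gm16027*, *Gm8783* and *Gm50132*, and *P2rx7* overlaps *Mir8115*. Other unnamed genes overlap *P2rx4*, *P2ry6*, *P2ry14* and *Entpd1* on the opposite strand. The part of these overlaps in the counts was not tested.

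The 200 bases before the annotated start of the canonical transcript of each gene were searched. They are printed for 4 of the genes whose window holds no annotated exon, 5′ to 3′ on the strand of the gene. *P2ry6* is 1 of those not printed. For *Entpd1*, *P2ry2*, *P2ry6* and *P2ry14* this start, and so the window, lies inside the span of the gene given above. Capitals mark matches on either strand to the core of PU.1 sites (GAGGAA), the myeloid factor that directs macrophage development, or to an NF-kappaB motif, whose factor is activated by LPS. Windows are chr10:75152360-75152559 (plus strand) for *Adora2a*, chr3:59118305-59118504 (minus strand) for *P2ry13*, chr5:122845341-122845540 (plus strand) for *P2rx4* and chr19:40648014-40648213 (plus strand) for *Entpd1*.
Adora2a: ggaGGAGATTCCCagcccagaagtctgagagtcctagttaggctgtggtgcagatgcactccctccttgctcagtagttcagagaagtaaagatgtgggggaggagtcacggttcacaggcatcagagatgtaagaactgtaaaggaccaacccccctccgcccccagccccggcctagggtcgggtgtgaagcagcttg
P2ry13: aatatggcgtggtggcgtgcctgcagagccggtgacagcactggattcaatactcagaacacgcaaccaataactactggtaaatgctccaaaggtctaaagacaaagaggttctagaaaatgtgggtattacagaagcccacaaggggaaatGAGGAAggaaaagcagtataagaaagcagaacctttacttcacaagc
P2rx4: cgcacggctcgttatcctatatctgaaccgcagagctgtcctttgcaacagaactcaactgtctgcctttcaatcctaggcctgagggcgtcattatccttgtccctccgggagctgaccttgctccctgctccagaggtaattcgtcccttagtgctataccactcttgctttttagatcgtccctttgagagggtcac
Entpd1: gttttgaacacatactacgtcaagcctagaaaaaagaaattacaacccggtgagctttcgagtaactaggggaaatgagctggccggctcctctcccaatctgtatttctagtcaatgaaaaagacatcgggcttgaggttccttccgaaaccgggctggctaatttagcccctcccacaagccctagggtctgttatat
The PU.1 core was found in *P2ry13*, 47 bases before the start, and in *P2ry14*, 170 bases before the start and within an annotated exon, and 18.8% of all 21757 promoters of this length held it. *Adora2a* held the NF-kappaB motif 197 bases before its start, as did 5.26% of all promoters. An AP-1 motif (TGACTCA or TGAGTCA, held by 3.22% of all promoters) was in none of the 10 windows, and the windows of *P2rx4*, *P2rx7*, *P2ry2*, *P2ry6*, *Adora2b*, *Entpd1* and *Nt5e* held none of the 3 motifs. A match describes these letters and not binding.

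The first question was whether *Prep* knockout changed these genes in each state, and the second whether LPS or IL-4 and IL-13 changed them in each genotype. A gene was called where the adjusted p of edgeR's quasi-likelihood test was under 0.05 and the fold change over 1.5. In M0, 5 of the 9 tested genes were higher in *Prep*-/- than in *Prep*+/- cells (*P2rx4*, *P2rx7*, *P2ry6*, *P2ry14* and *Entpd1*) and 1 was lower (*P2ry2*), against 15.4% of all tested genes called higher and 17.2% called lower. In M1, 3 were higher (*P2ry13*, *P2ry14* and *Entpd1*) and 1 lower (*Adora2b*), against 12.3% and 10.2% of all tested genes. In M2, 2 were higher (*P2rx4* and *Entpd1*) and 1 lower (*P2ry13*), against 6.37% and 9.82%. A block for the replicate number rested on a pairing read from these data, which the labels do not give. With it, 5 of the 9 genes were called in M2, since *P2ry2* (log2 fold change 0.79, adjusted p = 0.0112) and *P2ry14* (0.62, adjusted p = 0.0220) were added. Over the tested members, the median log2 change in M0, M1 and M2 was 1.01, 0.42 and 0.39, beside 0.02, 0.04 and 0.03 over all genes tested. The 8 macrophage markers had medians of 0.96, -0.08 and 0.31 in these states, and the other pathway genes -0.28, 0.01 and -0.12. *Entpd1* was called in all 3 states, and *Adora2a* in none. In edgeR's test against a fold change of 1.5, the M1 calls of *P2ry13* (adjusted p = 0.0863), *Adora2b* (0.189) and *Entpd1* (0.302) were lost.

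**Figure D1:**
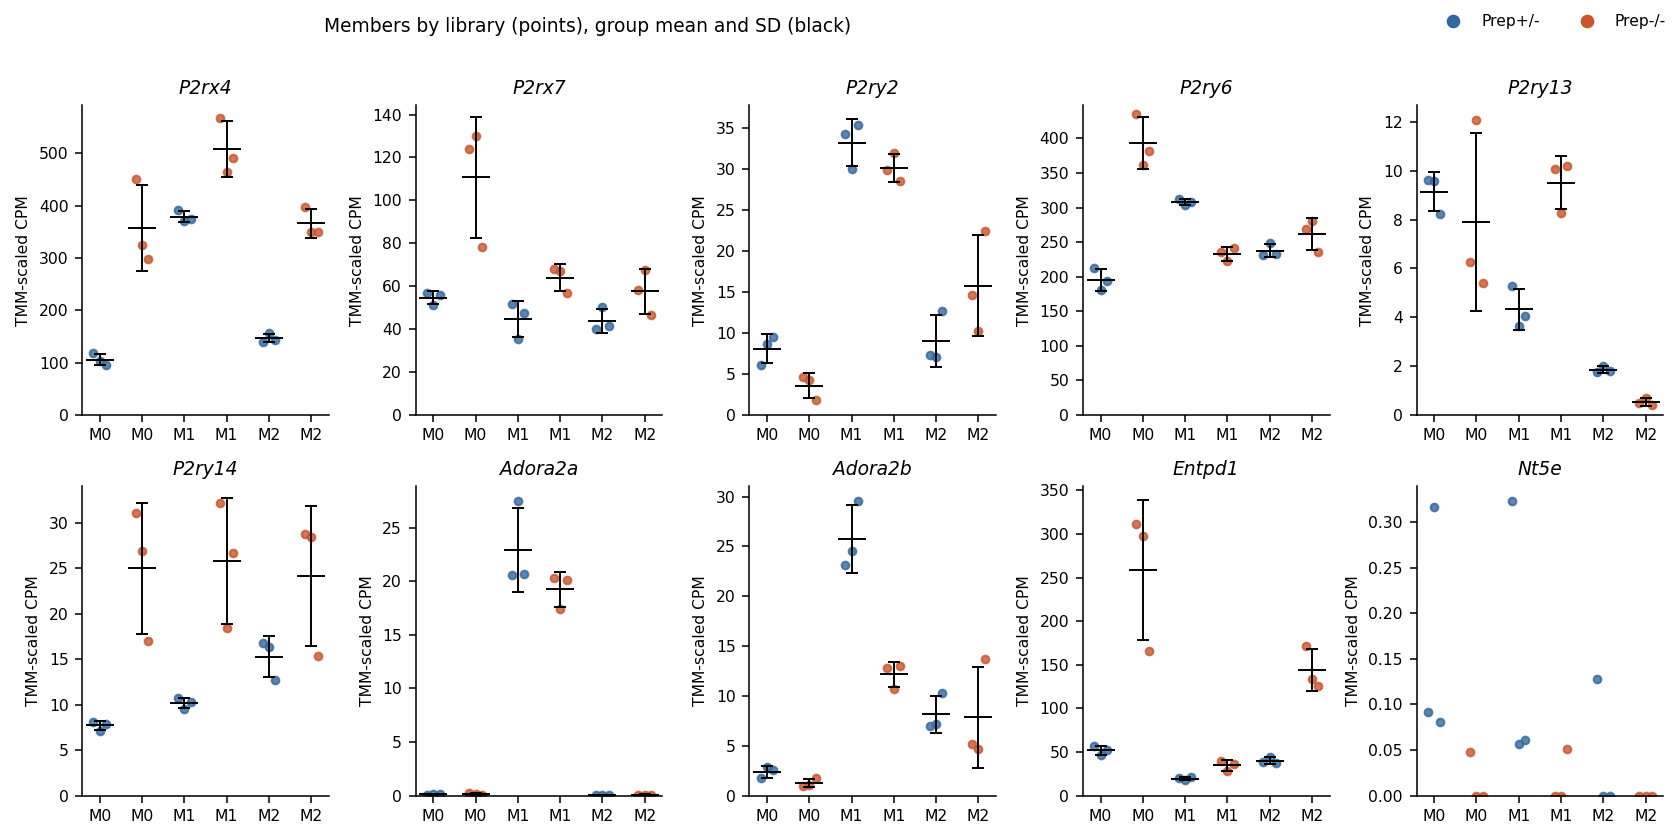
Level of each of the 10 genes in TMM-scaled CPM (linear axes starting at 0) in the 18 libraries, by state (M0, M1, M2) and genotype (colours); points are libraries and black bars the group mean and SD, which are left out for *Nt5e*. *P2rx4* and *Entpd1* are higher in every *Prep*-/- library than in any *Prep*+/- library of the same state, and *Adora2a* is above 0.3 CPM in M1 alone.

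*P2rx4*, an ATP-gated cation channel found on the surface and in lysosomes, was higher in unstimulated knockout cells. Its level was 118, 103 and 95.9 CPM in *Prep*+/- M0 and 451, 324 and 298 CPM in *Prep*-/- M0, a 3.39-fold difference (log2 fold change 1.76 ± 0.14 SE, n = 3 per group, adjusted p = 3.72e-07 by edgeR). In M2, 140, 156 and 144 CPM in *Prep*+/- cells stood against 398, 350 and 350 CPM in *Prep*-/- cells, a 2.50-fold difference (1.32 ± 0.14, adjusted p = 1.23e-05). The groups did not overlap in either state. After LPS, levels of 391, 371 and 375 CPM in *Prep*+/- and 568, 464 and 492 CPM in *Prep*-/- cells differed 1.34-fold (adjusted p = 0.0245), below the fold criterion. LPS raised *P2rx4* 3.59-fold in *Prep*+/- cells (1.84 ± 0.14, adjusted p = 2.15e-08), whereas in *Prep*-/- cells, which began from a higher level, the change was 1.42-fold (0.51 ± 0.14, adjusted p = 0.00476). The LPS change differed between the genotypes by -1.34 ± 0.19 on the log2 scale (adjusted p = 2.05e-04). Without replicate 1 of *Prep*-/- M0, the highest of its group, the LPS change in *Prep*-/- cells was 0.71 and was called. In a bulk library, fewer cells of a type and less RNA per cell cannot be told apart.

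*P2rx7*, the ATP receptor of the inflammasome response, was 2.03-fold higher in *Prep*-/- M0 (1.02 ± 0.18, adjusted p = 3.00e-04). The libraries were at 57.0, 51.1 and 55.9 CPM in *Prep*+/- M0 and at 124, 130 and 78.3 CPM in *Prep*-/- M0, where the lowest was the replicate 3 that stood apart. All 3 knockout libraries were above the heterozygous ones. In M1, 51.8, 35.5 and 47.3 CPM in *Prep*+/- and 67.8, 67.2 and 56.8 CPM in *Prep*-/- cells differed 1.42-fold (adjusted p = 0.0406), under the fold criterion, although the groups did not overlap. Without replicate 1 of *Prep*+/- M1 (0.63) or without replicate 3 of *Prep*-/- M1 (0.59) this difference was called. In M2, 39.8, 50.1 and 41.3 CPM in *Prep*+/- and 58.4, 67.5 and 46.7 CPM in *Prep*-/- cells overlapped (0.39 ± 0.18, adjusted p = 0.131). Both stimuli lowered *P2rx7* in *Prep*-/- cells, LPS 1.73-fold (adjusted p = 0.00152) and IL-4 with IL-13 1.93-fold (adjusted p = 5.75e-04). The same stimuli gave -0.29 ± 0.18 (adjusted p = 0.209) and -0.32 ± 0.18 (adjusted p = 0.256) in *Prep*+/- cells. The differences between the genotypes were -0.51 ± 0.26 for LPS (adjusted p = 0.164) and -0.62 ± 0.26 for IL-4 with IL-13 (adjusted p = 0.141). They were called once replicate 3 of *Prep*-/- M0 was left out, with -0.71 (adjusted p = 0.0276) and -0.82 (adjusted p = 0.0256).

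Among the nucleotide receptors, *P2ry6*, which responds to UDP, had the most counts and the smallest standard error of the fitted log2 changes. It was at 212, 181 and 193 CPM in *Prep*+/- M0 and at 435, 362 and 382 CPM in *Prep*-/- M0, a 2.01-fold difference (1.01 ± 0.10, adjusted p = 1.42e-06). After LPS the order was the opposite, with 312, 304 and 308 CPM in *Prep*+/- and 235, 222 and 242 CPM in *Prep*-/- cells, although the 1.32-fold lower level (-0.40 ± 0.10, adjusted p = 0.00502) was under the fold criterion. LPS raised *P2ry6* 1.58-fold in *Prep*+/- cells (adjusted p = 2.75e-05) and lowered it 1.69-fold in *Prep*-/- cells (adjusted p = 6.24e-06). In edgeR's test against a fold change of 1.5, both calls were lost (adjusted p = 0.274 in *Prep*+/- and 0.0516 in *Prep*-/- cells). The difference between the LPS changes was -1.41 ± 0.14 (adjusted p = 9.33e-06) and stayed called in that test. In M2 the genotypes overlapped, with 232, 248 and 233 CPM in *Prep*+/- and 269, 280 and 235 CPM in *Prep*-/- cells (0.14 ± 0.10, adjusted p = 0.325). IL-4 with IL-13 lowered *P2ry6* in *Prep*-/- cells (log2 fold change -0.59 ± 0.10, adjusted p = 1.35e-04) and gave 0.28 ± 0.10 in *Prep*+/- cells (adjusted p = 0.0533), a difference of -0.87 ± 0.14 (adjusted p = 0.00153). The call in *Prep*-/- cells was at the edge of the fold criterion, and without replicate 1 of *Prep*-/- M0 (-0.51), without replicate 3 of *Prep*-/- M2 (-0.52) or without both libraries that stood apart (-0.54) it was lost, as it was with no filter on low counts (-0.58).

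*P2ry2*, a receptor for ATP and UTP, was the 1 member that the main edgeR test called lower in *Prep*-/- M0. Its levels were 6.06, 8.60 and 9.50 CPM in *Prep*+/- M0 and 4.60, 4.27 and 1.80 CPM in *Prep*-/- M0, a 2.26-fold lower level (-1.18 ± 0.33, adjusted p = 0.00717). This call was lost with a replicate block over the libraries compared (adjusted p = 0.0540) and in a test against a fold change of 1.5 (adjusted p = 0.0712). LPS raised it in both genotypes, to 34.3, 30.0 and 35.4 CPM in *Prep*+/- cells (4.12-fold, adjusted p = 3.34e-05) and to 29.9, 32.0 and 28.6 CPM in *Prep*-/- cells (8.46-fold, adjusted p = 8.65e-07). The LPS levels overlapped between the genotypes (-0.14 ± 0.29, adjusted p = 0.729). The difference between the LPS changes was 1.04 ± 0.44 and was not called (adjusted p = 0.0934), and it was called when the 12 libraries compared were fitted alone (1.03, adjusted p = 0.0453). In M2, 7.33, 7.09 and 12.7 CPM in *Prep*+/- and 14.7, 10.2 and 22.4 CPM in *Prep*-/- cells overlapped (0.81 ± 0.30, adjusted p = 0.0633), and the difference was called without replicate 3 of *Prep*+/- M2 (1.11) or without replicate 2 of *Prep*-/- M2 (1.04). IL-4 with IL-13 raised *P2ry2* 4.43-fold in *Prep*-/- cells (adjusted p = 6.28e-05) and gave 0.16 ± 0.31 in *Prep*+/- cells (adjusted p = 0.766). The difference between these changes was 1.99 ± 0.45 (adjusted p = 0.0122), and it was lost when the 12 libraries compared were fitted alone (1.95, adjusted p = 0.0534). With both libraries that stood apart left out, the IL-4 and IL-13 change in *Prep*-/- cells was 1.49 and the difference 1.33, both still called.

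*P2ry13*, a receptor for ADP, differed between the genotypes in opposite directions in M1 and M2. After LPS it was at 5.27, 3.65 and 4.06 CPM in *Prep*+/- and at 10.1, 8.27 and 10.2 CPM in *Prep*-/- cells, 2.19-fold higher without overlap (1.13 ± 0.26, adjusted p = 0.00337). After IL-4 with IL-13 it was at 1.75, 2.01 and 1.78 CPM (41, 48 and 40 counts) in *Prep*+/- and at 0.503, 0.700 and 0.383 CPM (10, 14 and 8 counts) in *Prep*-/- cells, 3.48-fold lower without overlap (-1.80 ± 0.34, adjusted p = 0.00111). Before stimulation, levels of 9.62, 9.59 and 8.22 CPM in *Prep*+/- and 6.26, 12.1 and 5.40 CPM in *Prep*-/- cells overlapped (-0.20 ± 0.25, adjusted p = 0.524). The spread in *Prep*-/- M0 lay in replicate 2, and without it *P2ry13* was called lower in *Prep*-/- M0 (-0.67, adjusted p = 0.0125). LPS lowered *P2ry13* 2.11-fold in *Prep*+/- cells (adjusted p = 0.00204) and gave 0.26 ± 0.25 in *Prep*-/- cells (adjusted p = 0.387), a difference of 1.33 ± 0.36 (adjusted p = 0.0125). That difference was lost in edgeR's test against a fold change of 1.5 (adjusted p = 0.0906). Without replicate 2 of *Prep*-/- M0 the LPS change in *Prep*-/- cells was called (0.72, adjusted p = 0.00629). IL-4 with IL-13 lowered it in both genotypes, 4.93-fold in *Prep*+/- (adjusted p = 1.13e-05) and 14.9-fold in *Prep*-/- cells (adjusted p = 8.18e-08). The difference between these changes was -1.60 ± 0.42 (adjusted p = 0.0263), and it was lost when replicate 2 or 3 of *Prep*+/- M0, replicate 1 or 2 of *Prep*+/- M2 or replicate 3 of *Prep*-/- M2 was left out (adjusted p = 0.0517 to 0.0840 by edgeR).

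*P2ry14*, the receptor for UDP-glucose, was higher in *Prep*-/- cells before stimulation and after LPS. The libraries were at 8.11, 7.14 and 7.90 CPM in *Prep*+/- M0 and at 31.0, 26.9 and 17.0 CPM in *Prep*-/- M0, a 3.24-fold difference (1.69 ± 0.26, adjusted p = 6.40e-05). In M1, 10.7, 9.56 and 10.3 CPM stood against 32.2, 18.4 and 26.7 CPM, a 2.53-fold difference (1.34 ± 0.26, adjusted p = 0.00110). All *Prep*-/- libraries were above all *Prep*+/- libraries in both states. In M2, 16.8, 16.3 and 12.7 CPM in *Prep*+/- and 28.7, 28.4 and 15.3 CPM in *Prep*-/- cells overlapped (0.66 ± 0.25, adjusted p = 0.0615). Without replicate 3 of *Prep*-/- M2, the lowest of its group, the M2 difference was 0.90 and was called (adjusted p = 0.00573). IL-4 with IL-13 raised *P2ry14* 1.98-fold in *Prep*+/- cells (adjusted p = 0.0120), a call that was lost without replicate 2 of *Prep*+/- M0 (0.92, adjusted p = 0.0527), and gave -0.05 ± 0.24 in *Prep*-/- cells (adjusted p = 0.888). The difference between the genotypes was -1.03 ± 0.35 and not called (adjusted p = 0.0751), and it was called without replicate 3 of *Prep*-/- M0 (-1.25, adjusted p = 0.0252). LPS gave 0.40 ± 0.26 in *Prep*+/- (adjusted p = 0.208) and 0.04 ± 0.24 in *Prep*-/- cells (adjusted p = 0.890).

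**Figure D2:**
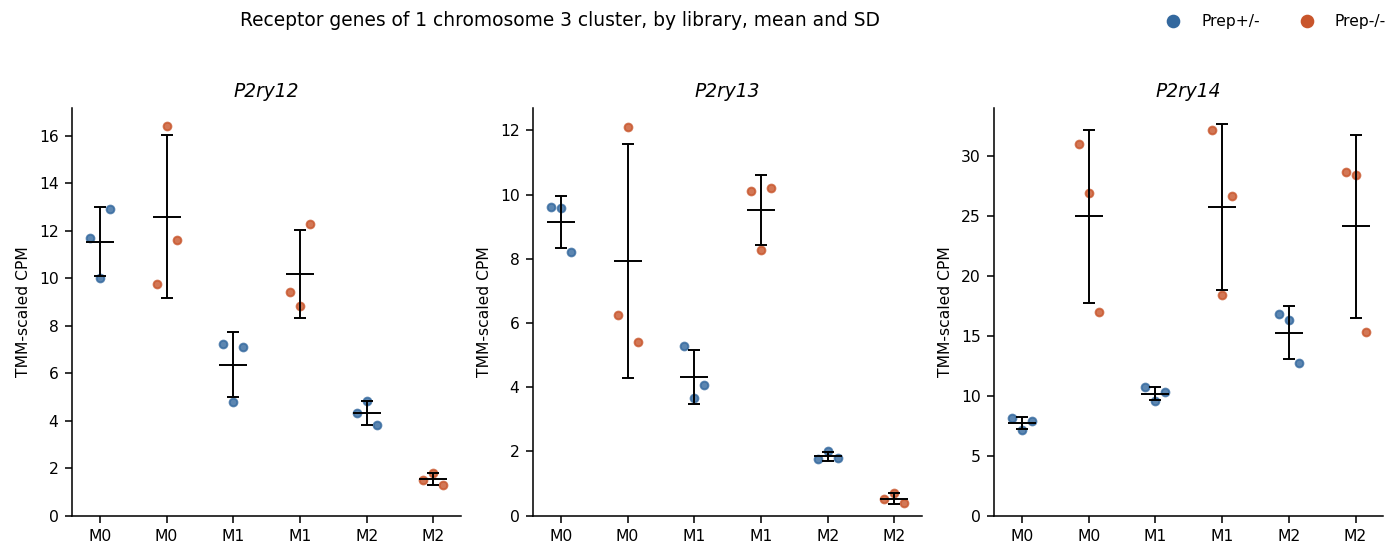
Level in TMM-scaled CPM (linear axes starting at 0) of *P2ry12*, *P2ry13* and *P2ry14*, which neighbour each other on chromosome 3, in the 18 libraries by state and genotype; points are libraries and black bars the group mean and SD. *P2ry12* and *P2ry13* are lowest in *Prep*-/- M2, whereas *P2ry14* is lowest in *Prep*+/- M0.

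The pattern most like that of *P2ry13* over the 18 libraries was that of *P2ry12*, its neighbour and also an ADP receptor (Pearson r = 0.974 of log2 CPM, as a description). *P2ry12* was at 4.30, 4.82 and 3.83 CPM in *Prep*+/- M2 and at 1.51, 1.80 and 1.29 CPM in *Prep*-/- M2 (-1.49 ± 0.24, adjusted p = 3.25e-04). Its IL-4 and IL-13 change was -1.41 ± 0.21 in *Prep*+/- and -3.03 ± 0.24 in *Prep*-/- cells, a difference of -1.62 ± 0.32 (adjusted p = 0.00611), close in size to that of *P2ry13*. All libraries share the 6 groups, so that genes that respond to the same stimulus correlate. By the same measure, the genes nearest to the other members were *H2-D1* for *P2rx4* (0.991), *Fam210b* for *P2rx7* (0.958), *Larp1* for *P2ry2* (0.983), *Cnpy3* for *P2ry6* (0.925), *Kif9* for *P2ry14* (0.959), *Gp6* for *Adora2a* (0.995), *Creld2* for *Adora2b* (0.967) and *Trf* for *Entpd1* (0.989).

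Both adenosine receptors rose after LPS in both genotypes. *Adora2a*, which couples to cAMP production and responds to low adenosine, was close to absent without LPS. It had 2, 4 and 4 counts in *Prep*+/- M0, 5, 3 and 2 in *Prep*-/- M0, 1, 2 and 2 in *Prep*+/- M2 and 2, 1 and 2 in *Prep*-/- M2. After LPS it had 382, 490 and 341 counts in *Prep*+/- and 390, 345 and 396 counts in *Prep*-/- cells. No library of another state came near these counts. Summed over the group and scaled for depth, the LPS level was 166 times that of M0 in *Prep*+/- cells (95% interval 89.8 to 346) and 128 times in *Prep*-/- cells (69.5 to 268), where the intervals cover counting error only. The edgeR test called both changes (adjusted p = 5.17e-12 and 1.07e-11), and their difference was -0.37 ± 0.48 (adjusted p = 0.698). In CPM, the LPS libraries were at 20.6, 27.5 and 20.7 in *Prep*+/- and at 20.3, 17.4 and 20.1 in *Prep*-/- cells, with all 3 knockout libraries just below the heterozygous ones (-0.25 ± 0.16, adjusted p = 0.236). With 1 to 5 counts per library, small genotype differences in M0 and M2 were not detectable at this depth. The ratio of summed counts was 1.08 (0.405 to 2.90) in M0 and 1.15 (0.264 to 4.99) in M2, and differences within these intervals could not be told from none.

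*Adora2b*, the adenosine receptor that needs high adenosine, was 2.11-fold lower in *Prep*-/- than in *Prep*+/- cells after LPS. The libraries were at 23.1, 24.5 and 29.6 CPM in *Prep*+/- M1 and at 12.8, 10.7 and 13 CPM in *Prep*-/- M1 (-1.08 ± 0.31, adjusted p = 0.0144). The groups did not overlap, but the adjusted p was 0.0566 without replicate 3 of *Prep*+/- M1 and 0.0518 without replicate 2 of *Prep*-/- M1. Unstimulated levels were 1.73, 2.84 and 2.56 CPM (38, 72 and 64 counts) in *Prep*+/- and 0.949, 1.09 and 1.75 CPM (20, 26 and 38 counts) in *Prep*-/- cells (-0.92 ± 0.39, adjusted p = 0.0642). This difference was called without replicate 1 of *Prep*+/- M0 (-1.12, adjusted p = 0.0420) or without replicate 3 of *Prep*-/- M0 (-1.22, adjusted p = 0.0367), the 2 libraries that overlapped. With all libraries kept, it was called by DESeq2 (-0.91, adjusted p = 0.0323) and by edgeR with a replicate block over all libraries (-0.95, adjusted p = 0.0186). LPS raised *Adora2b* 10.7-fold in *Prep*+/- cells (adjusted p = 5.24e-07) and 9.60-fold in *Prep*-/- cells (adjusted p = 1.85e-06), and the changes differed by -0.16 ± 0.51 (adjusted p = 0.840). IL-4 with IL-13 also raised it, 3.41-fold to 6.99, 7.21 and 10.3 CPM in *Prep*+/- cells (adjusted p = 0.00157) and 6.19-fold to 5.13, 4.70 and 13.7 CPM in *Prep*-/- cells (log2 fold change 2.63, adjusted p = 3.40e-05). The value of 13.7 CPM belonged to replicate 3 of *Prep*-/- M2, which stood apart. Without it the log2 fold change of M2 against M0 in *Prep*-/- cells was 1.96 and was still called, and its difference from *Prep*+/- cells, not called, went from 0.86 to 0.19. With it the M2 genotypes differed by -0.06 ± 0.32 (adjusted p = 0.923), and without it by -0.73 (adjusted p = 0.0262), which was called.

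*Entpd1*, which encodes CD39, the enzyme that removes extracellular ATP and ADP, was the tested member with the largest difference between the genotypes in M0. It was at 56.8, 46.6 and 52.7 CPM in *Prep*+/- M0 and at 311, 298 and 166 CPM in *Prep*-/- M0, a 4.97-fold difference (2.31 ± 0.20, adjusted p = 7.15e-07). The replicate 3 that stood apart had the lowest knockout level and was still above every *Prep*+/- library. In M2, 38.4, 44.6 and 36.9 CPM stood against 171, 134 and 126 CPM, a 3.59-fold difference (1.85 ± 0.20, adjusted p = 1.67e-05). In M1, 19.6, 17.8 and 21.3 CPM stood against 40.1, 27.7 and 36.0 CPM, a 1.77-fold difference (0.82 ± 0.20, adjusted p = 0.00592). LPS lowered *Entpd1* in both genotypes, 2.66-fold in *Prep*+/- (adjusted p = 2.22e-05) and 7.47-fold in *Prep*-/- cells (adjusted p = 1.22e-08), and the fall was larger in *Prep*-/- cells (difference -1.49 ± 0.28, adjusted p = 0.00156). IL-4 with IL-13 lowered it 1.80-fold in *Prep*-/- cells (-0.85 ± 0.20, adjusted p = 0.00228), where 171 CPM in M2 overlapped with 166 CPM in M0. In *Prep*+/- cells the change was -0.38 ± 0.20 (adjusted p = 0.211), and the difference between the genotypes was -0.47 ± 0.28 (adjusted p = 0.306). Without replicate 3 of *Prep*-/- M0 that difference was -0.70 and was called (adjusted p = 0.0397).

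*Nt5e*, which encodes CD73, the enzyme that makes adenosine from AMP, was near 0 in every group. In M0 it had 2, 8 and 2 counts in *Prep*+/- cells against 1, 0 and 0 counts in *Prep*-/- cells. After stimulation it had 6, 1 and 1 in *Prep*+/- M1 and 0, 0 and 1 in *Prep*-/- M1, and 3, 0 and 0 in *Prep*+/- M2. All 3 libraries of *Prep*-/- M2 had 0 counts, and a count of 0 allows up to 3 counts per library. The ratio of summed counts of *Prep*-/- to *Prep*+/- cells was 0.0903 in M0 (0.00211 to 0.610) and 0.113 in M1 (0.00254 to 0.839), with intervals for counting error only. Without the filter on low counts, edgeR gave -3.03 ± 1.37 in M0 (adjusted p = 0.102) and -2.76 ± 1.46 in M1 (adjusted p = 0.192), so that neither was called. Stromal cells also express *Nt5e*. The stromal marker list (7 of 7 genes) summed to 12.9 to 16.0 CPM in *Prep*+/- M0 and to 0.784 to 17.8 CPM in *Prep*-/- M0. Its part in the few counts of *Nt5e* was not tested. In *Prep*-/- M0, where *Nt5e* had at most 1 count per library, *Entpd1* had 3607 to 7127.

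**Figure D3:**
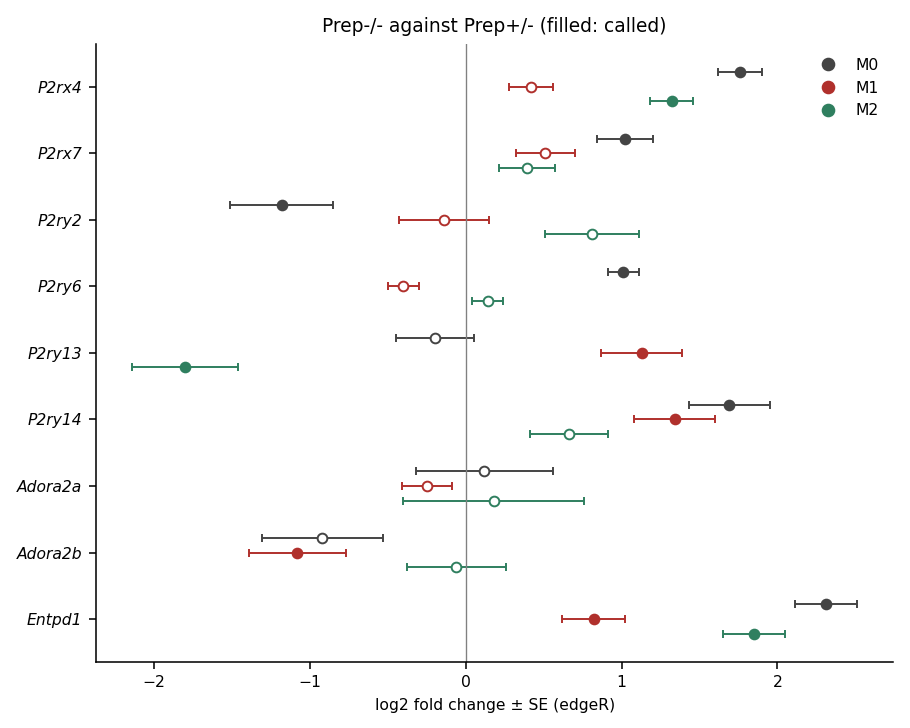
Log2 fold change of *Prep*-/- against *Prep*+/- (x axis, edgeR, bars ± SE) for the 9 tested genes (y axis) in M0, M1 and M2 (colours); filled points were called, and points right of 0 are higher in *Prep*-/-. *Entpd1* lies to the right of 0 in all 3 states (2.31, 0.82 and 1.85), and *P2ry13* lies on opposite sides in M1 and M2 (1.13 and -1.80).

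Seen by stimulus, LPS raised 5 of the 9 tested genes in *Prep*+/- cells (*P2rx4*, *P2ry2*, *P2ry6*, *Adora2a* and *Adora2b*) and lowered 2 (*P2ry13* and *Entpd1*), against 16.7% of all tested genes called higher and 20.9% called lower. In *Prep*-/- cells it raised 3 (*P2ry2*, *Adora2a* and *Adora2b*) and lowered 3 (*P2rx7*, *P2ry6* and *Entpd1*), against 20.9% and 21.0%. With 1 to 5 counts per library outside M1, *Adora2a* passed the filter on low counts only through its M1 libraries. Its place among the genes tested thus rested on its level after LPS, and its LPS calls add no support to these counts. The LPS change differed between the genotypes for 4 genes, 1 with a higher (*P2ry13*) and 3 with a lower change in *Prep*-/- cells (*P2rx4*, *P2ry6* and *Entpd1*), against 12% and 9.15% of all tested genes. The same 3 genes with a lower change were called higher in *Prep*-/- M0, and both comparisons use those libraries. IL-4 with IL-13 raised 2 genes in *Prep*+/- cells (*P2ry14* and *Adora2b*) and lowered 1 (*P2ry13*), against 6.09% and 6.77%. In *Prep*-/- cells it raised 2 (*P2ry2* and *Adora2b*) and lowered 4 (*P2rx7*, *P2ry6*, *P2ry13* and *Entpd1*), against 14.7% and 15.5%. This change differed between the genotypes for 3 genes, higher for *P2ry2* and lower for *P2ry6* and *P2ry13*, against 4.53% and 4.13% of all tested genes.

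**Figure D4:**
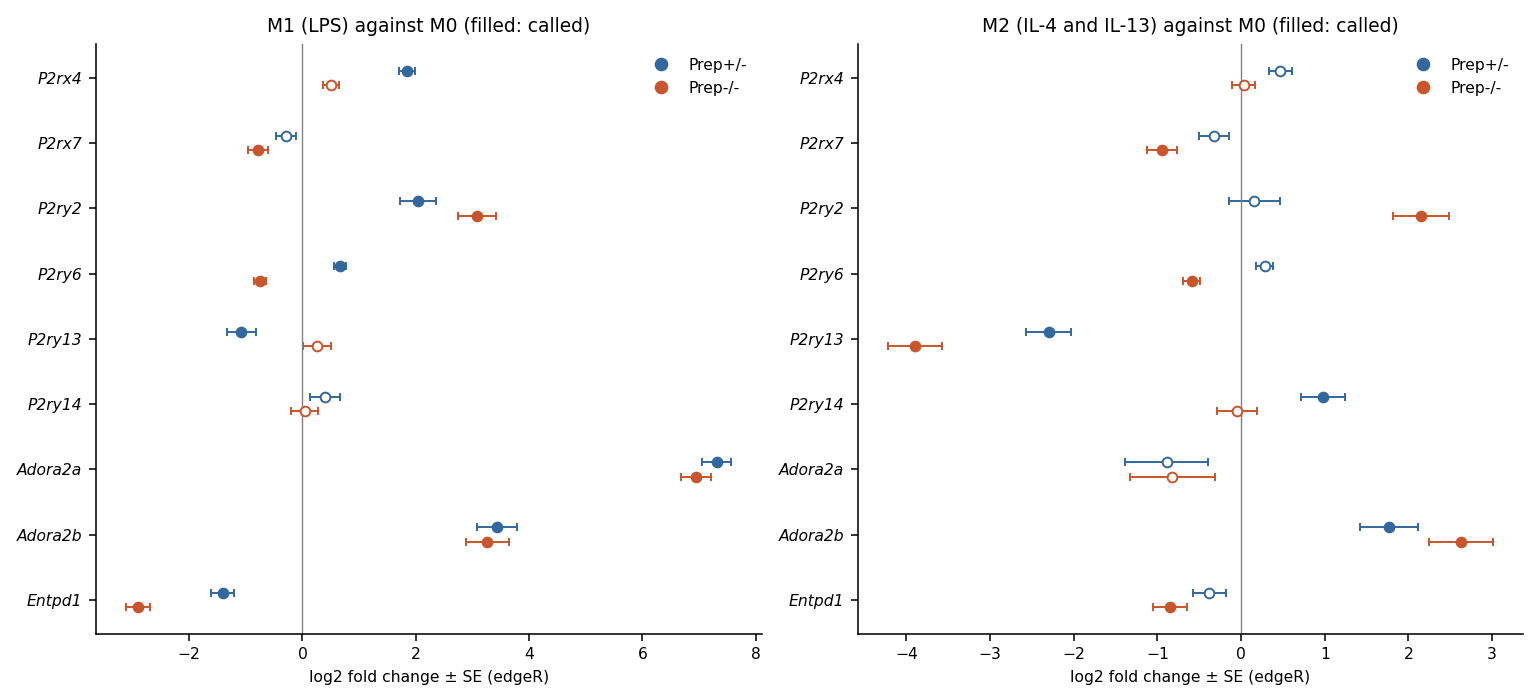
Log2 fold change of M1 against M0 (left) and of M2 against M0 (right, another scale) on the x axis (edgeR, bars ± SE) for the 9 tested genes (y axis) in *Prep*+/- and *Prep*-/- cells (colours); filled points were called. For *P2ry6* the LPS change is 0.66 in *Prep*+/- and -0.75 in *Prep*-/- cells, while *Adora2a* (7.31 and 6.95) and *Adora2b* (3.43 and 3.26) move together.

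Levels of different genes were compared as CPM per kilobase of exon. In *Prep*+/- M0 the order was *P2ry6* (30.0 CPM per kb), *P2rx4* (13.6), *Entpd1* (7.31), *P2rx7* (5.60), *P2ry13* (2.77), *Adora2b* (1.29), *P2ry2* (0.804), *P2ry14* (0.687), *Adora2a* (0.0259) and *Nt5e* (0.0185). Libraries overlapped between *Adora2b* and *P2ry2*, between *P2ry2* and *P2ry14* and between *Adora2a* and *Nt5e*. Divided by the longest transcript instead, *P2rx7* (11.0) came before *Entpd1* (9.04) and *P2ry14* before *P2ry2*. In *Prep*-/- M0 the first 3 genes were *P2ry6* (60.3), *P2rx4* (45.9) and *Entpd1* (36.3), and each overlapped with the next. After LPS, *P2rx4* came first in both genotypes, at 48.7 CPM per kb in *Prep*+/- cells, where it overlapped with *P2ry6* (47.3), and at 65.2 in *Prep*-/- cells, where it did not (35.8). LPS also placed *Adora2b* at 13.9 and 6.57 and *Adora2a* at 4.36 and 3.66 CPM per kb, against 2.75 and 4.86 for *Entpd1*, so that in *Prep*+/- cells both adenosine receptors were above *Entpd1* in every library. For *Prep*-/- M1, the order of *Adora2a* and *Entpd1* depended on the length used. Divided by the longest transcript, *Adora2a* (6.34) was above *Entpd1* (6.01).

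The rest of the pathway was described with 52 other listed symbols, of which 46 were in the table and 28 were tested. *Acp3* and *Acpp*, both listed, name the same gene, which was in the table as *Acpp*. In M0, 6 were called higher and 7 lower in *Prep*-/- cells, in M1 4 and 4, and in M2 2 and 7, with a median log2 change of -0.28, 0.01 and -0.12. The shares of all tested genes called higher and lower in these comparisons were 15.4% and 17.2%, 12.3% and 10.2%, and 6.37% and 9.82%. LPS raised 11 and lowered 6 of the 28 in *Prep*+/- cells (16.7% and 20.9% of all tested genes) and raised 11 and lowered 4 in *Prep*-/- cells (20.9% and 21.0%). IL-4 with IL-13 raised 2 and lowered 8 in *Prep*+/- cells (6.09% and 6.77%) and raised 3 and lowered 9 in *Prep*-/- cells (14.7% and 15.5%).

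Among the related receptors, *Gpr34*, a receptor for lysophosphatidylserine that belongs to the same family, had the largest genotype difference of the list in M0. It was at 9.25, 4.22 and 6.17 CPM in *Prep*+/- and at 74.0, 69.4 and 67.0 CPM in *Prep*-/- M0 (3.42 ± 0.27, adjusted p = 3.36e-07). LPS lowered it in both genotypes, to 0.108, 0.393 and 0.424 CPM in *Prep*+/- cells (adjusted p = 1.19e-07) and to 0.104, 0.202 and 0.102 CPM, a few counts per library, in *Prep*-/- cells (adjusted p = 1.20e-10). *P2ry1*, an ADP receptor, rose with IL-4 and IL-13 from 7.75, 8.29 and 6.49 CPM to 54.3, 55.9 and 53.2 CPM in *Prep*+/- cells (2.86 ± 0.13, adjusted p = 1.14e-10), whereas *P2ry12* and *P2ry13* fell. In *Prep*-/- cells *P2ry1* rose from 4.08, 3.43 and 4.24 CPM to 53.9, 56.1 and 52.8 CPM (3.79 ± 0.13, adjusted p = 1.32e-11), and the difference between these changes was 0.93 ± 0.17 (adjusted p = 0.00457).

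Other enzymes of extracellular nucleotides responded to LPS. *Cd38*, which consumes extracellular NAD and feeds a second route to adenosine, rose from 1.41, 0.671 and 0.401 CPM to 414, 429 and 448 CPM in *Prep*+/- cells (9.04 ± 0.28, adjusted p = 2.41e-12) and from 0.474, 0.670 and 0.415 CPM to 299, 331 and 368 CPM in *Prep*-/- cells (9.29 ± 0.29, adjusted p = 2.08e-12). *Acpp*, an acid phosphatase that can make adenosine from AMP, had the largest called difference between the genotypes in M1 among the named genes of the list. It was at 33.6, 43.1 and 44.8 CPM in *Prep*+/- M1 and at 2.03, 4.29 and 3.05 CPM in *Prep*-/- M1 (-3.69 ± 0.33, adjusted p = 3.47e-06). In M0 it was higher in *Prep*-/- cells, at 2.28, 1.72 and 0.831 CPM (48, 41 and 18 counts) against 0.638, 0.829 and 0.361 CPM (14, 21 and 9 counts; 1.39 ± 0.41, adjusted p = 0.0102). The 0.831 CPM, just above 0.829, belonged to the replicate 3 of *Prep*-/- M0 that stood apart. The LPS change of *Acpp* differed between the genotypes by -5.08 ± 0.51 (adjusted p = 1.15e-05). *Enpp4*, a phosphodiesterase of dinucleotides, was higher in *Prep*-/- cells in M0 (1.08 ± 0.31, adjusted p = 0.00861) and in M1 (1.28 ± 0.27, adjusted p = 0.00224) and gave -0.05 ± 0.45 in M2 (adjusted p = 0.950). *Ada*, which deaminates adenosine, was at 6.31, 5.49 and 5.31 CPM in *Prep*+/- M2 and at 2.11, 2.15 and 1.87 CPM in *Prep*-/- M2 (-1.48 ± 0.19, adjusted p = 5.15e-05). *Prep*-/- cells had less *Ada* than *Prep*+/- cells in M0 (-1.03 ± 0.17, adjusted p = 1.75e-04) and M1 (-0.64 ± 0.18, adjusted p = 0.0113) as well. The nucleoside transporter gene *Slc29a3* was higher in *Prep*-/- cells in all 3 states (1.29 ± 0.18, 0.70 ± 0.18 and 1.01 ± 0.18 in M0, M1 and M2, with adjusted p = 3.81e-05, 0.00778 and 7.19e-04 by edgeR). *Gja1*, whose hemichannels can release ATP, was lower in *Prep*-/- cells in all 3 states (-1.85 ± 0.36, -2.57 ± 0.31 and -2.83 ± 0.43 in M0, M1 and M2, with adjusted p = 4.96e-04, 4.50e-05 and 2.13e-04 by edgeR).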

How the data were processed

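mRNA was measured by bulk RNA-seq in BMDMs of 6 groups with 3 biological replicates each, grouped by the genotype and state in the labels. The authors trimmed reads with Trimmomatic 0.36, aligned them to GRCm39 with HISAT2 2.2.1.0 and counted them with stringtie2. They deposited whole-number counts for 16314 gene symbols without normalization, at 19068237 to 22598279 per library. The annotation release, the strand setting and the treatment of multi-mapped reads are not given in the sources used here. Reads carried no molecular identifiers, so intervals and floors cover counting error only.

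Genes were kept with filterByExpr (12021 genes), scaled by TMM (factors 0.818 to 1.20) and tested with edgeR's quasi-likelihood test (edgeR 4.0.16, R 4.3.3) on all 18 libraries, with 1 coefficient per group and Benjamini-Hochberg adjustment over all tested genes. A call needed both a 1.5-fold change and an adjusted p below 0.05, the criteria that the study used with DESeq2, which was run as an alternative (1.42.0). The genotype difference of a stimulus change was tested as an interaction. Ratios of summed counts have exact 95% intervals. The test was tested on simulated data. Other alternatives were other filters and scalings, glmTreat, only the libraries compared, a replicate block, each library left out, and, chosen after seeing the data, both libraries that stood apart left out.

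The members and lists were chosen with earlier results of these data known. Named pathway genes come from the 5 largest called changes of each comparison whose mean reached 5 CPM, and *P2ry12* also as the gene most like *P2ry13*. Not every gene of that rule is named.

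Same-numbered libraries deviated together in the M2 genotype comparison (r = 0.249, 0.255 and 0.462) and in M1 against M0 in *Prep*-/- cells (0.201, 0.169 and 0.259). This pairing comes from the data, since the labels do not say what a number marks. Deviations of same-numbered libraries had to correlate above 0.1 for all 3 numbers. Single numbers reached similar values in other pairs of groups (0.297 and 0.270 for *Prep*-/- M2 with *Prep*+/- M0). Some were negative and of similar size, with -0.315 for *Prep*-/- M0 with *Prep*+/- M0 and -0.349 for *Prep*-/- M0 with *Prep*+/- M1. For *Prep*+/- M1 with *Prep*+/- M0 the lowest was -0.269. Positions, exon lengths and promoters come from GENCODE vM39 on GRCm39, which 15667 symbols matched. Copies of the members among transcripts were sought by blastn 2.17.0, with 90% identity over 300 bases as the minimum. Figures were drawn with matplotlib 3.10.9.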

Additional observations from a re-analysis of the deposited data

Results flagged for a closer look

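The stimulus changes of 5 members differed between the genotypes by a test of the difference itself, which makes 7 results. After LPS, the change in *Prep*-/- cells minus that in *Prep*+/- cells was -1.34 on the log2 scale for *P2rx4*, -1.41 for *P2ry6*, -1.49 for *Entpd1* and 1.33 for *P2ry13*. After IL-4 with IL-13, it was 1.99 for *P2ry2*, -0.87 for *P2ry6* and -1.60 for *P2ry13*. *P2ry6* and *P2ry13* appear under both stimuli, with *P2ry6* negative in both and *P2ry13* positive after LPS and negative after IL-4 with IL-13. Both tests use the same M0 libraries, one of which stood apart from its group. In groups of 3, no library was tested for lying far from the others.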

How the results depend on the processing

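Of 1377 log2 fold changes recomputed under the alternatives, 1278 kept their direction and their side of the threshold, 31 lost and 37 gained a call, and 31 changed sign, all of them values that had not been called. A test against a fold change of 1.5 (glmTreat) called 1 member in place of 4 for the genotypes in M1, 3 in place of 6 for M2 against M0 in *Prep*-/- cells and 0 in place of 3 for the genotype difference of the M2 change. Without the fold criterion 7 members were called in M1. The M2 genotype comparison called 5 members in place of 3 with the replicate block, with DESeq2 and with both libraries that stood apart left out. The genotype difference of the M2 change called 1 with the libraries compared alone and 5 with both libraries left out. Leaving out each library in turn gave 3 to 5 members for the genotypes in M2 and 2 to 6 for the genotype difference of the M2 change. The cause of these changes was not tested.

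In comparisons where same-numbered libraries did not all deviate together, the replicate block over the libraries compared lost *P2ry2* in M0 (-1.24, adjusted p = 0.0540). In the difference of the M2 change, this block lost *P2ry2* (1.90, adjusted p = 0.0635) and gained *P2ry14* (-1.04, adjusted p = 0.0468). It changed no call in M1 against M0 in *Prep*-/- cells.

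Over all genes, the counts called moved by more than 1.5 times with glmTreat: for the genotypes from 3913 to 1970 in M0, 2700 to 634 in M1 and 1947 to 723 in M2, for M1 against M0 from 4529 to 2956 in *Prep*+/- and 5048 to 3212 in *Prep*-/-, for M2 against M0 from 1546 to 672 and 3636 to 1898, and for the differences from 2540 to 751 and 1041 to 103. Without the fold criterion they were 4370 in M1 and 2967 in M2. The replicate block gave 2333 for M2 against M0 in *Prep*-/- cells. For the difference of the M2 change it gave 664, the libraries compared alone 555, and the lowest of leaving out 1 library was 509 (without replicate 2 of *Prep*+/- M0). The genotype count in M1 was 1745 without replicate 1 of *Prep*-/- M1.

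Changes of sign came from leaving out 1 library. The ranges were -0.32 to 0.35 for *Adora2a* in the genotypes in M0, -0.18 to 0.31 for *P2ry2* for M2 against M0 in *Prep*+/-, -0.32 to 0.14 for *Adora2b* in the difference of the M1 change, -0.19 to 0.50 for *Adora2a* in the difference of the M2 change, -0.09 to 0.43 for *Adora2a* in the genotypes in M2, -0.73 to 0.20 for *Adora2b* in the genotypes in M2, -0.26 to 0.19 for *P2ry14* for M2 against M0 in *Prep*-/-, -0.60 to 0.07 for *Adora2a* in the difference of the M1 change, -0.08 to 0.23 for *P2rx4* for M2 against M0 in *Prep*-/-, -0.67 to 0.01 for *P2ry13* in the genotypes in M0, -0.17 to 0.24 for *P2ry14* for M1 against M0 in *Prep*-/-. With both libraries left out, *P2ry13* in M0 was 0.01, *P2ry14* in M1 against M0 in *Prep*-/- -0.17, *P2rx4* in M2 against M0 in *Prep*-/- -0.05, the difference of the M1 change of *Adora2b* 0.14 and that of the M2 change of *Adora2a* -0.29. Depth limited *Adora2a* outside M1 and *Nt5e* throughout, at 0 to 8 counts per library.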
